A study of Mus musculus with 14 samples.

Results

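The genes described here are 50 cell cycle and proliferation genes, read from RNA sequencing of 14 libraries of mouse lung and taken by symbol from tables of 54347 genes. The list held 14 genes that act at entry into or during S phase and 36 that act in mitosis. All 50 symbols were found in each table, and all 50 passed the filter on low counts in every comparison. A dividing cell first licenses its replication origins with the minichromosome maintenance (MCM) proteins, makes deoxynucleotides and copies its DNA, and later condenses, aligns and separates its chromosomes under the control of mitotic cyclins and kinases. Genes of the first group are commonly activated by E2F factors at the start of S phase, and genes of the second peak later, many of them through CCAAT boxes and cell cycle homology region (CHR) elements in their promoters. Most cells of the adult lung do not divide, and in allergic inflammation the dividing cells can include macrophages, lymphocytes, epithelium and endothelium.

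All mice were of the C57BL/6 strain and received intranasal Alternaria alternata, a fungal allergen extract, at 2 mg per dose in 40 µl on 4 days. In the first experiment, irradiated recipients bearing human JAK1 with gain of function (GOF, n = 2) or WT recipients (n = 2) received WT bone marrow, so blood cells derived from marrow were WT in both groups while other lung cells kept the genotype of the recipient. JAK1 is a tyrosine kinase that relays cytokine receptor signals, and the labels give neither the promoter that drives the human JAK1 nor the exact allele. In the second, WT mice received intrathecal resiniferatoxin (RTX, n = 3) at 25 ng per mouse on each of 2 days in the L5-L6 region, or 10 µl saline by the same route (n = 2). In the third, WT mice received RTX under the skin of the flank at 30, 70 and 100 µg/kg on 3 days (n = 3), or 100 µl saline (n = 2). RTX is an agonist of the TRPV1 channel that destroys sensory neurons bearing it. The labels describe intrathecal RTX as removing spinal visceral afferents only and subcutaneous RTX as removing vagal and spinal ones. Whether each library had a mouse of its own is not stated, so the spread behind every p-value may be technical.

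Total counts per library ran between 18198626 and 24392777, between 23441 and 24413 genes had a count, and the 50 members took 0.0782% to 0.253% of the counts. Lung identity was plain in every library, with Sftpc, the alveolar surfactant protein C gene, at 5453 CPM or more. The libraries also split by 2 trace transcripts into states that cross the groups. State A (Rps3a2 over 2 CPM) held WT recipient 1, both intrathecal saline libraries and subcutaneous RTX libraries 2 and 3. State B (Hmga2 over 2 CPM, Rps3a2 not) held WT recipient 2, both GOF recipients, the 3 intrathecal RTX libraries and subcutaneous saline library 1, and state C (neither) held subcutaneous saline library 2 and subcutaneous RTX library 1. Xist, transcribed from the inactive X chromosome of female cells, was at 62.9 and 73.2 CPM in GOF recipients and 122 and 132 CPM in WT recipients, and at no more than 5.12 CPM in the other 10 libraries. In whole lung, fewer dividing cells and less RNA of these genes per cell cannot be told apart.

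Promoter sequences from RefSeq (GRCm38.p6) were found for 43 of the 50 members, 12 S-phase and 31 mitotic, and are shown because the members' shared regulation is usually described through these motifs. The 250 bases before each annotated start were searched on both strands for CHR elements (TTTGAA, with TTTAAA as the other form), for CCAAT boxes (spelled as their name) and for E2F sites (TTGGCGC first, then TTCGCGC, next TTCCCGC and last TTGCCGC, all counted alike). Promoters of 6 well known members, 3 mitotic and 3 of S phase, are printed 5′ to 3′ on the strand of the gene as the 150 bases before the start, and capitals mark the matches on either strand. The regions are Cdk1 chr10:69352913-69353062 (minus strand), Ccnb1 chr13:100786487-100786636 (minus strand), Plk1 chr7:122159285-122159434 (plus strand), Mcm2 chr6:88898781-88898930 (minus strand), Pcna chr2:132253181-132253330 (minus strand) and Rrm2 chr12:24708104-24708253 (plus strand).
Cdk1: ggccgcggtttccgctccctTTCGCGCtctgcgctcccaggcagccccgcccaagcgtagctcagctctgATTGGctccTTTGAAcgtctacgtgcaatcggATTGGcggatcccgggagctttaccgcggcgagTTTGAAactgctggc
Ccnb1: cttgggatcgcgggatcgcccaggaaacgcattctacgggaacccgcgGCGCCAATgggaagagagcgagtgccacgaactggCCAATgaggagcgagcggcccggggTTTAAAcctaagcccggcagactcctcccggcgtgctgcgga
Plk1: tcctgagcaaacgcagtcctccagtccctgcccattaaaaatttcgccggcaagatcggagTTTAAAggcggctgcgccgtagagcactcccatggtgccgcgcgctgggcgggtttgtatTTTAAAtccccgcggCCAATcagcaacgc
Mcm2: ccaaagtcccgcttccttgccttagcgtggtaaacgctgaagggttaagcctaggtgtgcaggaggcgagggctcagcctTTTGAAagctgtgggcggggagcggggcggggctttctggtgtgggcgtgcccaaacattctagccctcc
Pcna: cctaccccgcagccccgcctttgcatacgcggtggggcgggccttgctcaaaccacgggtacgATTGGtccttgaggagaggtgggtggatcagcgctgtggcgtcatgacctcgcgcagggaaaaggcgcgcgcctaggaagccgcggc
Rrm2: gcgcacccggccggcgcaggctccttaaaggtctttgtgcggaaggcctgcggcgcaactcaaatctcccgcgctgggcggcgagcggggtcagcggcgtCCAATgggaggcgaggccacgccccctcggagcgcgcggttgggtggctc

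Cdk1, which encodes the mitotic cyclin-dependent kinase, had 2 CHR matches (positions −71 to −66 and −15 to −10 from the start), 2 CCAAT boxes within the bases shown and an E2F match. In Ccnb1, which encodes its partner cyclin B1, the E2F match shares bases with the first CCAAT box, so the run of capitals there holds both. Plk1, a mitotic kinase, had 2 CHR matches and a CCAAT box 14 to 10 bases before its start. Of the S-phase promoters, Mcm2 had a CHR match and Pcna and Rrm2 a CCAAT box each within the bases shown, and farther upstream Mcm2 had a CCAAT box (−175 to −171) and Rrm2 an E2F match (−235 to −229). A CHR match was present in 16 of 31 mitotic members (51.6%) and 4 of 12 S-phase members (33.3%), against 28.1% of 27025 genes with a promoter. A CCAAT box was present in 23 mitotic (74.2%) and 8 S-phase members (66.7%), against 37.5% of all genes, and both together in 13 mitotic (41.9%) and 2 S-phase members (16.7%), against 10.1%. An E2F match was present in 6 mitotic (19.4%) and 5 S-phase members (41.7%), against 9.01% of all genes. These are matches of letters in a window and do not show that a factor binds there.

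**Figure D1:**
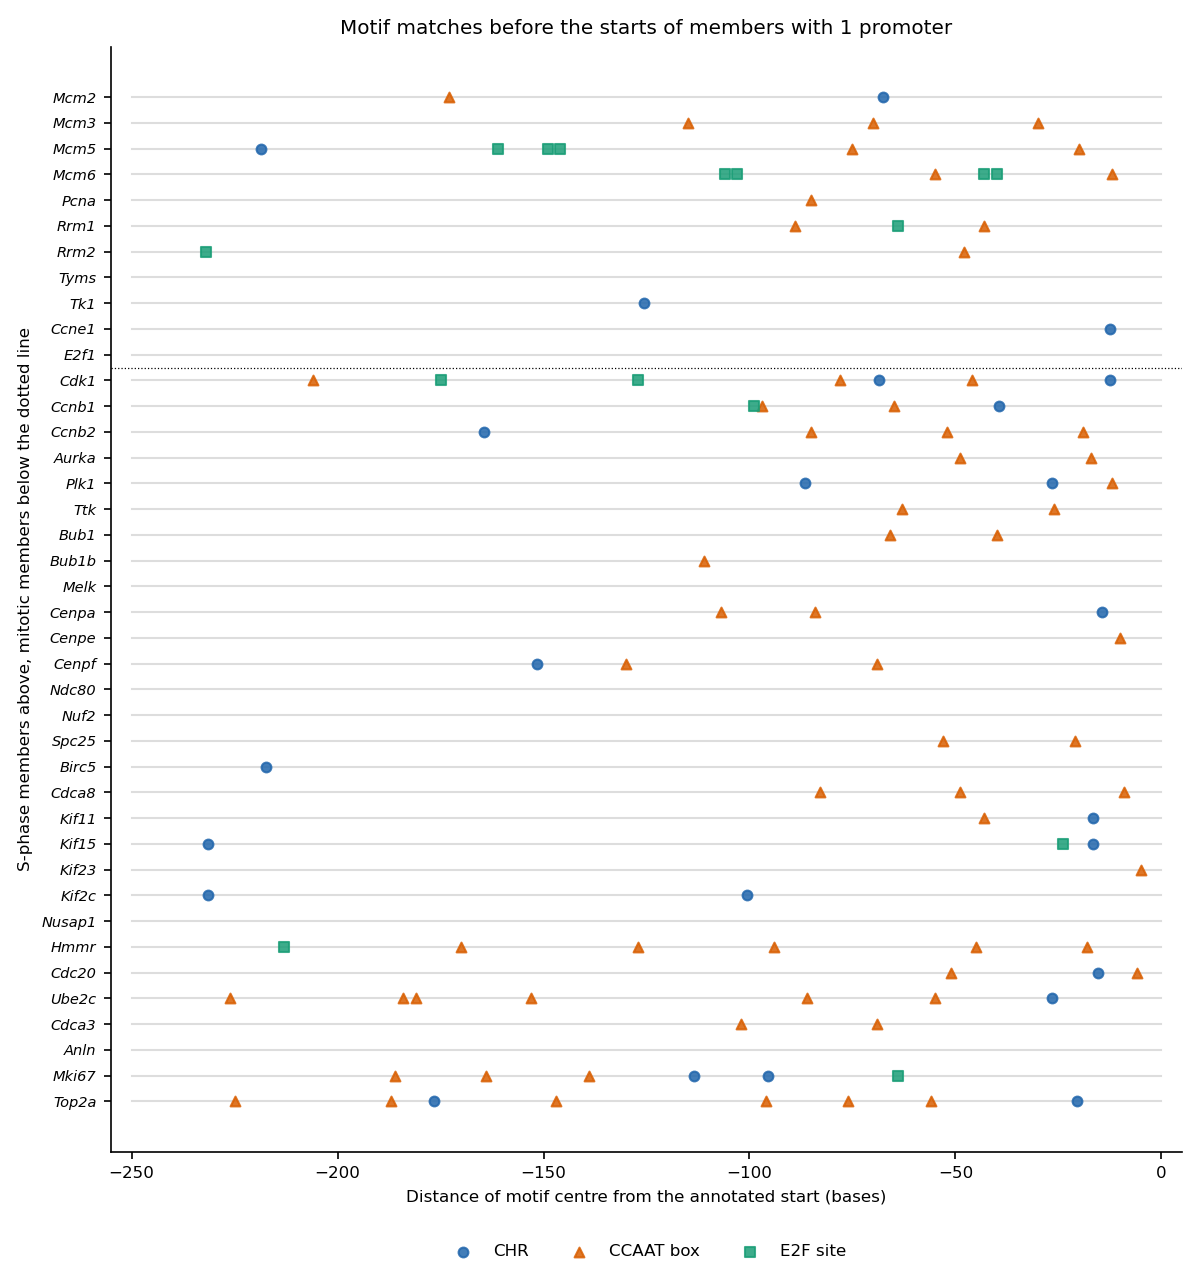
Positions of CHR, CCAAT box and E2F matches (points, centre of each match, in bases from the annotated start) before the starts of the members with 1 promoter in RefSeq, S-phase members above the dotted line and mitotic members below it. CHR and CCAAT box matches both lie in 41.9% of the mitotic members with a promoter, and E2F matches in 41.7% of the S-phase members.

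Per kilobase of exon, the S-phase members were on the whole the more abundant: their median over the 14 libraries was 10.7 CPM per kb (2.71 to 65.8), and that of the mitotic members 4.58 CPM per kb (0.978 to 21.1). The highest was Pcna, the sliding clamp of DNA polymerases, at 65.8 CPM per kb, followed by Cdc20, an activator of the anaphase-promoting complex, at 21.1 CPM per kb. The lowest was Kif15, a spindle kinesin, at 0.978 CPM per kb. Members differed in how far they ranged over the 14 libraries. E2f1, the transcription factor, stayed between 17.2 and 25.9 CPM, whereas the highest CPM of Pcna was 2.16 times its lowest and that of Mcm4, a subunit of the replicative helicase, 2.28 times. At the other end, Top2a, the topoisomerase that untangles mitotic chromosomes, ranged over 5.24 times and Cdca3, a factor in the degradation of mitotic proteins, over 5.67 times. The level also differed between experiments: the 50 members summed to 782 to 1232 CPM in the 4 chimera libraries and to 1601 to 2531 CPM in the other 10. Irradiation, transplant, the Xist signal and experiment cannot be told apart in that difference, and it was not tested.

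The members that are not described one by one below had these ranges over the 14 libraries, on the CPM scale, which does not allow levels of different genes to be compared. Among the helicase subunits Mcm3 ranged over 32.2 to 88.2 CPM, Mcm4 over 27.5 to 62.6 CPM, Mcm6 over 39.2 to 109 CPM and Mcm7 over 35.9 to 82.9 CPM. Of the nucleotide enzymes, Rrm1, the large subunit of ribonucleotide reductase, ranged over 39.7 to 101 CPM, thymidine kinase Tk1 over 12.5 to 38.1 CPM and thymidylate synthase Tyms over 8.13 to 24.3 CPM. For each of these 7 genes, as for all 50 members, the lowest value was in a chimera library. The kinase Aurkb and its passenger partners Birc5 (survivin) and Cdca8 (borealin) ranged over 7.97 to 33.7 CPM, 7.64 to 33.3 CPM and 6.21 to 25.9 CPM. Bub1, a checkpoint kinase, ranged over 4.17 to 19.2 CPM, Melk, a mitotic kinase, over 5.06 to 15.9 CPM, cyclin B2 (Ccnb2) over 6.98 to 35.9 CPM and Foxm1, a transcription factor of mitotic genes, over 8.56 to 34.7 CPM. The centromeric histone Cenpa ranged over 11.2 to 40.2 CPM, and the kinetochore subunits Ndc80, Nuf2 and Spc25 over 3.96 to 15.9 CPM, 5.20 to 25.1 CPM and 4.40 to 16.2 CPM. Among spindle proteins Kif20a ranged over 10.2 to 41.1 CPM, Nusap1 over 7.69 to 34.6 CPM, Prc1 over 14.8 to 65.2 CPM and Tpx2 over 13.6 to 54.7 CPM. Anln and Ect2, which act in cytokinesis, ranged over 12.8 to 47.4 CPM and 8.69 to 35.2 CPM, and Ube2c, the conjugating enzyme of the anaphase-promoting complex, over 8.51 to 36.95 CPM. The median coefficient of variation of the 50 members among libraries of a group was 8.33% in GOF recipients and 27.4% in WT recipients, 12.7% in intrathecal RTX lungs and 3.87% in their saline controls, and 6.70% in subcutaneous RTX lungs and 12.8% in their saline controls.

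**Figure D2:**
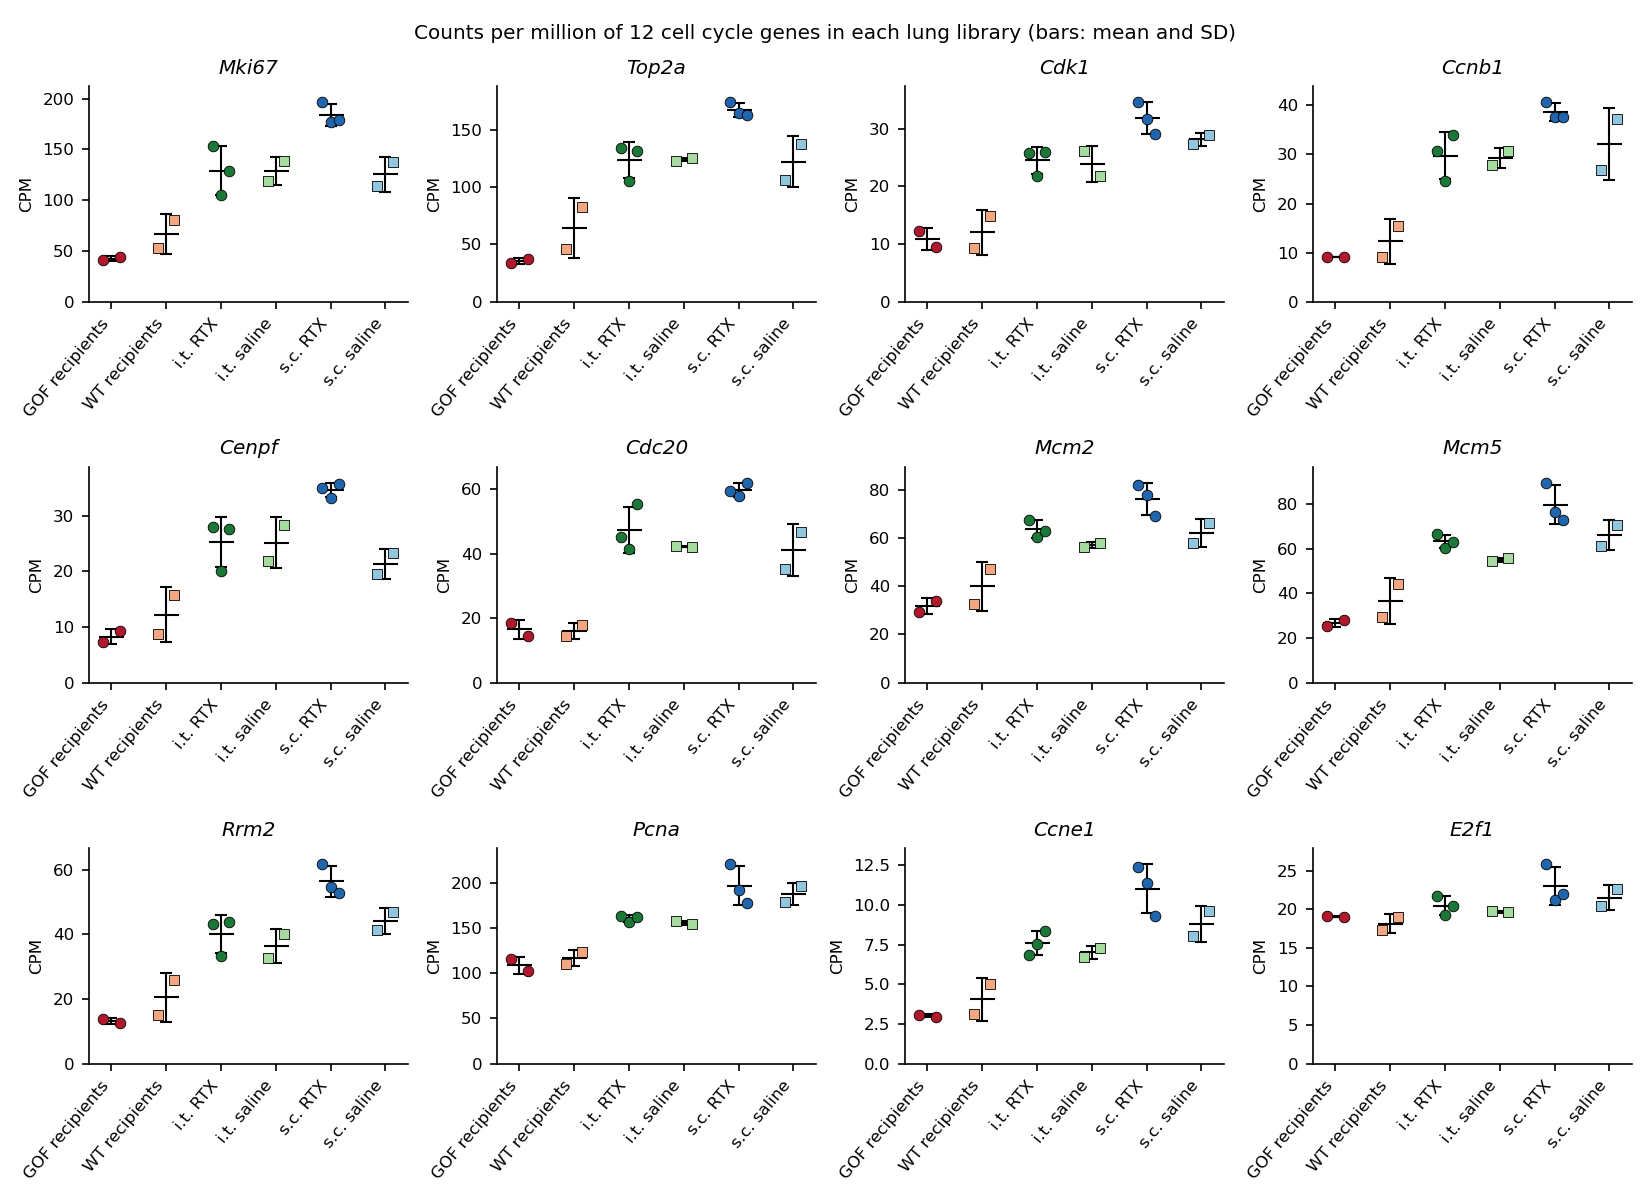
CPM (counts scaled to the total of each library, y axes from 0) of 12 members in each library, points with the mean and SD of each group. Mki67 lies at 177 to 197 CPM in subcutaneous RTX libraries, above both subcutaneous saline libraries (113 and 138 CPM), while E2f1 stays between 17.2 and 25.9 CPM in all 14 libraries.

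The chimera experiment asked how JAK1 GOF in recipient cells changed the allergen-exposed lung. Cell cycle transcripts were mostly lower in GOF recipients: 48 of 50 members had a negative log2 fold change, with a median of −0.45 (0.733-fold), against a median of 0.00 over all 17298 genes tested, of which 50.1% were positive. No member passed edgeR's quasi-likelihood test at an adjusted p under 0.05, a threshold that 0.717% of all genes passed. At an unadjusted p under 0.05, 18 members were lower and 0 higher, against 6.94% of all genes lower and 4.63% higher. The groups did not overlap in 28 members, all lower in GOF recipients, against 23% of all genes lower and 19.7% higher. DESeq2 called 1 member among 305 genes, Top2a (DESeq2 adjusted p = 0.0215), and limma voom called 0 members among 45 genes.

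Among the mitotic members, Mki67, which encodes the proliferation antigen Ki-67, was at 40.8 and 44.1 CPM in GOF recipients and 52.8 and 80.2 CPM in WT recipients. Top2a was at 33.3 and 37.6 CPM in GOF recipients and 46.1 and 83.1 CPM in WT recipients. For both genes the groups did not overlap, and the GOF libraries lay close together while WT recipient 2 stood well above WT recipient 1. The log2 fold change of Mki67 was −0.64 ± 0.19 (SE, n = 2 and 2, edgeR adjusted p = 0.215) and that of Top2a −0.86 ± 0.31 (edgeR adjusted p = 0.404).

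The member with the smallest p was Bub1b, which encodes the spindle checkpoint protein BUBR1, at 13.6 and 14.3 CPM in GOF recipients and 18.8 and 22.5 CPM in WT recipients (−0.56 ± 0.16, edgeR adjusted p = 0.164). Kif2c, a kinesin that depolymerises microtubules at centromeres, had the lowest log2 fold change, with 4.61 and 3.52 CPM in GOF recipients and 6.14 and 9.18 CPM in WT recipients (−0.90 ± 0.27, edgeR adjusted p = 0.179). Kif15 was at 4.34 and 3.46 CPM in GOF recipients and 5.48 and 8.85 CPM in WT recipients. In these 3 genes every GOF library lay below both WT libraries. Cenpe, a kinetochore motor, was at 6.36 and 6.65 CPM in GOF recipients and 8.38 and 13.7 CPM in WT recipients. Kif11, the motor that separates spindle poles, was at 11.96 and 12.7 CPM in GOF recipients and 14.4 and 23.2 CPM in WT recipients. Their log2 fold changes were −0.86 for Kif15, −0.76 for Cenpe and −0.60 for Kif11 (edgeR adjusted p = 0.229, 0.238 and 0.329).

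By role, all 9 kinesins and spindle proteins were lower in value in GOF recipients, with a median of −0.56, as were all 8 genes of the centromere, kinetochore and chromosomal passenger complex, with a median of −0.52. The 12 mitotic cyclins, kinases and their regulators were also all negative, with a median of −0.41, but only Bub1b among them had an unadjusted p under 0.05. Cdk1 was at 12.2 and 9.45 CPM in GOF recipients and 9.29 and 14.8 CPM in WT recipients, and Ccnb1 was at 9.05 and 9.12 CPM in GOF recipients and 9.05 and 15.5 CPM in WT recipients. For both genes the groups overlapped: WT recipient 1 was the lowest of the 4 libraries for Cdk1 and lay between the GOF libraries for Ccnb1. Ccna2, cyclin A2, was at 14.96 and 13.1 CPM in GOF recipients and 14.95 and 25.98 CPM in WT recipients, and Plk1 at 7.53 and 8.96 CPM in GOF recipients and 9.38 and 12.96 CPM in WT recipients. Ccna2 overlapped as well, and Plk1 was apart. The 3 genes of mitotic protein degradation had a median of −0.27, and Cdc20 was at 18.6 and 14.3 CPM in GOF recipients and 14.3 and 17.8 CPM in WT recipients, with overlap.

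Among the 14 S-phase members the median was −0.35, and 5 had an unadjusted p under 0.05. All 7 licensing and replication genes were negative, with a median of −0.32. Mcm5, a subunit of the helicase, was at 25.3 and 27.9 CPM in GOF recipients and 29.3 and 43.96 CPM in WT recipients, and Mcm2, another subunit, at 29.4 and 33.96 CPM in GOF recipients and 32.8 and 46.9 CPM in WT recipients. The groups were apart for Mcm5 and overlapped for Mcm2. Rrm2, the regulatory subunit of ribonucleotide reductase, had the lowest log2 fold change of these 14 (−0.64 ± 0.24, edgeR adjusted p = 0.355), with 13.8 and 12.5 CPM in GOF recipients and 15.2 and 25.9 CPM in WT recipients. The E-type cyclins of S-phase entry were low, with Ccne1 at 3.09 and 2.97 CPM in GOF recipients and 3.10 and 5.02 CPM in WT recipients. Ccne2 was at 5.73 and 4.45 CPM in GOF recipients and 6.05 and 8.66 CPM in WT recipients. Pcna (116 and 102 CPM in GOF recipients, 110.5 and 123 CPM in WT recipients) and E2f1 (19.1 and 18.96 CPM in GOF recipients, 17.2 and 18.99 CPM in WT recipients) differed least of these 14, with log2 fold changes of −0.09 (95% interval −0.37 to 0.19) and 0.08 (−0.25 to 0.41).

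The size of this difference rested on which WT library was kept. WT recipient 1 was of state A, and WT recipient 2 and both GOF recipients were of state B. Without WT recipient 2, state and group therefore cannot be told apart. Within state B, 49 members were lower and 1 higher in GOF recipients than in WT recipient 2 (median −0.72), while 51.4% of all genes were higher. WT recipient 2 was the highest of the 4 libraries in 48 of 50 members and above WT recipient 1 in all 50, by a median of 0.57 on the log2 scale, whereas it was the higher in 47.2% of all genes tested. Without WT recipient 2 the median was −0.13, and without WT recipient 1 it was −0.72. The fit without WT recipient 1 compares libraries of state B only, with 1 WT library that is assumed to vary like the others. Without GOF recipient 1 the median was −0.42, and without GOF recipient 2 it was −0.47, each with 1 GOF library left. Over all genes the medians of these 2 fits were −0.01 and −0.02. With library state as a term over all 14 libraries, 41 members were lower at an unadjusted p under 0.05, against 13.1% of all genes in either direction. In that fit 1 member was called (Mcm5, edgeR adjusted p = 0.045), among 177 genes.

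Related lists lay on the same side. Of 50 other replication genes 47 were negative (median −0.37) and of 60 other mitotic genes 54 were negative (median −0.36), with 0 called in either and 15 and 14 lower at an unadjusted p under 0.05. Hells, a chromatin remodeller, had the smallest p of the replication genes (−0.68 ± 0.21, edgeR adjusted p = 0.206), with Lig1, the ligase that joins Okazaki fragments, next (−0.51 ± 0.16, 0.214). Troap, a spindle-associated protein (−1.38 ± 0.33, edgeR adjusted p = 0.0981), and Ncapd2, a condensin subunit (−0.62 ± 0.16, 0.122), led the mitotic genes. The 20 G1 cyclins, kinases, pocket proteins and inhibitors were split 10 to 10. In that list Cdkn1a, which encodes the inhibitor p21, was at 375 and 361 CPM in GOF recipients and 305 and 283 CPM in WT recipients, apart and higher (0.33 ± 0.14, edgeR adjusted p = 0.380). Cdk4, a G1 kinase, was at 103 and 97.2 CPM in GOF recipients and 156 and 103 CPM in WT recipients (−0.37, edgeR adjusted p = 0.451). Ccnd1, cyclin D1, was at 303 and 384 CPM in GOF recipients and 292 and 387 CPM in WT recipients, with overlap.

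Markers of other cell types moved with the groups. The 8 T cell genes were all lower in value (2 called) and summed to 59.8 to 92.5 CPM in GOF recipients against 117 to 145 CPM in WT recipients. The 8 B and plasma cell genes were also all lower (2 called), at 215 to 256 CPM in GOF recipients against 430 to 541 CPM in WT recipients. The 6 alveolar macrophage genes, whose sum is mostly Chil3, were at 487 to 507 CPM in GOF recipients against 1216 to 1795 CPM in WT recipients, with 4 of 6 lower and 1 called. The 8 heart muscle genes were all higher (5 called), at 527 to 545 CPM in GOF recipients against 241 to 347 CPM in WT recipients, and the 7 lung epithelial genes summed to 25347 to 26631 CPM in GOF recipients against 20369 to 22302 CPM in WT recipients. The 8 heat shock genes were all higher in value (2 at an unadjusted p under 0.05, 0 called) and summed to 1442 to 1646 CPM in GOF recipients against 925 to 1363 CPM in WT recipients. The 7 neutrophil precursor genes summed to 211 to 221 CPM in GOF recipients against 137 to 173 CPM in WT recipients, nearly all of it Ltf (218 and 208 CPM in GOF recipients, 134 and 168 CPM in WT recipients), while Elane was at 0. The 5 germinal centre B cell genes summed to 94.02 to 96.4 CPM in GOF recipients against 86.2 to 88.1 CPM in WT recipients, with Rgs13 at most 0.0476 CPM. Most of that sum was S1pr2, at 87.9 and 89.5 CPM in GOF recipients and 79.2 and 76.4 CPM in WT recipients. Of the 3 genes of this list that were tested, 1 was higher in value and 2 were lower (median −0.33). The part of these cells and of the heat shock genes in the result was not tested.

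The subcutaneous experiment asked what loss of both vagal and spinal visceral afferents changed. All 50 members were higher in value in RTX lungs, with a median log2 fold change of 0.31 (1.24-fold) and a range of 0.06 to 0.71, against a median of −0.00 over all 17363 genes, 49.2% of which were above 0. edgeR called 0 members and 0 of all genes (0%), with 3153 genes at an unadjusted p under 0.05, and the smallest adjusted p of the experiment, 0.0947, was shared by Cenpf. At an unadjusted p under 0.05, 31 members were higher and 0 lower, against 8.97% of all genes higher and 9.19% lower. In 41 members every RTX library was above both saline libraries, against 20.6% of all genes (17.8% were apart and lower). DESeq2 called 15 members higher among 761 genes, and limma voom called 0.

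Cenpf, which encodes a large protein of the kinetochore that accumulates in G2 (chromosome 1, 189640606 to 189688086, GRCm38), was at 35.00, 33.2 and 35.6 CPM in RTX lungs and 19.4 and 23.2 CPM in saline lungs. The 3 RTX libraries lay close together and well above both saline libraries, and the log2 fold change was 0.68 ± 0.10 (SE, n = 3 and 2, edgeR adjusted p = 0.0947), rank 34 by p among all genes. Mki67 (chromosome 7, 135689784 to 135716361) was at 197, 177 and 179.5 CPM in RTX lungs and 113 and 138 CPM in saline lungs (0.54 ± 0.10, edgeR adjusted p = 0.106). Top2a (chromosome 11, 98992943 to 99024189) was at 175, 165 and 163 CPM in RTX lungs and 107 and 138 CPM in saline lungs (0.44 ± 0.11, edgeR adjusted p = 0.136). In both, the lowest RTX library was above the highest saline library, and saline library 1 was the lowest of the 5.

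Cdc20 was at 59.5, 57.8 and 61.9 CPM in RTX lungs and 35.4 and 46.7 CPM in saline lungs (0.53 ± 0.12, edgeR adjusted p = 0.127). Kif23, a kinesin of the central spindle, was at 33.9, 31.1 and 34.95 CPM in RTX lungs and 22.3 and 26.2 CPM in saline lungs (0.44 ± 0.10, 0.130). Both genes had groups apart. Cenpe was at 25.8, 26.6 and 25.5 CPM in RTX lungs and 17.1 and 20.6 CPM in saline lungs, and Hmmr, a spindle-associated protein, at 24.9, 24.5 and 25.4 CPM in RTX lungs and 17.1 and 19.8 CPM in saline lungs, again apart (0.45 and 0.42). Ttk, the checkpoint kinase MPS1, had the highest log2 fold change (0.71 ± 0.20, edgeR adjusted p = 0.147) on low levels, 10.6, 9.13 and 9.96 CPM in RTX lungs and 4.87 and 7.12 CPM in saline lungs.

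By role, the 8 centromere, kinetochore and passenger genes were all apart (median 0.34), as were the 12 mitotic cyclins, kinases and regulators (median 0.31), and 8 of 9 kinesins and spindle proteins (median 0.41). Among the kinases and cyclins the difference was smallest for Cdk1, at 34.7, 31.8 and 29.1 CPM in RTX lungs and 27.3 and 29.01 CPM in saline lungs (0.16, 95% interval −0.07 to 0.39). Ccnb1 was at 40.7, 37.6 and 37.7 CPM in RTX lungs and 26.9 and 37.3 CPM in saline lungs, where saline library 2 nearly reached the RTX libraries. Ccna2 was at 61.9, 56.2 and 52.5 CPM in RTX lungs and 41.4 and 49.6 CPM in saline lungs, and Plk1 at 29.4, 31.4 and 31.5 CPM in RTX lungs and 22.2 and 28.6 CPM in saline lungs.

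The 14 S-phase members had a median of 0.23, and 7 of them were apart, against 34 of the 36 mitotic members with a median of 0.36. Mcm2 was at 81.9, 77.6 and 68.9 CPM in RTX lungs and 57.9 and 66.02 CPM in saline lungs (0.28, edgeR adjusted p = 0.206), and Mcm5 at 89.4, 76.5 and 72.8 CPM in RTX lungs and 61.1 and 70.8 CPM in saline lungs (0.26, 0.268). Rrm2 was at 61.8, 54.7 and 52.9 CPM in RTX lungs and 41.2 and 47.04 CPM in saline lungs and had the highest log2 fold change of the S-phase members (0.34 ± 0.10, edgeR adjusted p = 0.156). All 3 of these were apart. Ccne1 was at 12.4, 11.4 and 9.34 CPM in RTX lungs and 8.03 and 9.64 CPM in saline lungs, and Ccne2 at 15.8, 14.5 and 12.5 CPM in RTX lungs and 10.1 and 14.5 CPM in saline lungs. E2f1 was at 25.9, 21.1 and 22.02 CPM in RTX lungs and 20.4 and 22.6 CPM in saline lungs, and Pcna at 221, 193 and 178 CPM in RTX lungs and 179 and 196 CPM in saline lungs. These last 4 genes overlapped between the groups, and Pcna had the lowest log2 fold change of the 50 (0.06, 95% interval −0.18 to 0.29).

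The size again depended on the controls. Saline library 1 was the lowest of the 5 libraries in 48 of 50 members, and saline library 2 was above it in 49. The heart muscle genes summed to 417 CPM in saline library 1 and 116 CPM in saline library 2, and the epithelial genes to 31107 and 22968 CPM. The 6 erythroid precursor genes, mostly Hba-a1 and Hbb-bs, summed to 2065 and 1241 CPM. The T cell, germinal centre B cell and neutrophil precursor lists were lower in saline library 1. The part of these differences in the result was not tested. Without saline library 1 the median was 0.19, against 0.00 over all genes. Without saline library 2 the median was 0.45, against 0.00 over all genes. In that fit the 1 saline library left is assumed to vary like the others, and calls rose over all genes tested, not only among members. RTX library 1 was the highest in 38 members, and without it 22 members had an unadjusted p under 0.05, against 15.7% of all genes. In state C, the 1 state that holds both groups, all 50 members were higher in the single RTX library than in the single saline library, by a median of 0.32, against 52.2% of all genes. State A held RTX libraries only and state B a saline library only. With library state as a term over all 14 libraries the median was 0.53 and 39 members had an unadjusted p under 0.05, against 17.4% of all genes. In that setting 0 members were called, and 184 of all genes.

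Of 50 other replication genes 47 were positive (median 0.24, 15 higher at an unadjusted p under 0.05) and of 60 other mitotic genes 58 were positive (median 0.34, 32 higher). Pold1, the catalytic subunit of DNA polymerase delta, had the smallest p of the replication genes (0.47 ± 0.10, edgeR adjusted p = 0.124), with Brca1, a DNA repair gene, next (0.57 ± 0.15, 0.138). Kif18b, a mitotic kinesin (0.69 ± 0.13, edgeR adjusted p = 0.108), and Smc2, a condensin subunit (0.44 ± 0.09, 0.120), led the mitotic genes. Of the 20 G1 genes 16 were positive (median 0.17), led by Ccng2, cyclin G2 (0.43 ± 0.09, edgeR adjusted p = 0.117), and Cdkn1b, the inhibitor p27 (0.21 ± 0.07, 0.201). Cdkn1a was at 208, 213 and 196 CPM in RTX lungs and 168 and 188 CPM in saline lungs, apart, and Ccnd1 at 214, 244 and 259 CPM in RTX lungs and 275 and 247 CPM in saline lungs, with overlap.

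Markers of other cells also moved. The 7 lung epithelial genes were all lower in value and summed to 16633 to 19272 CPM in RTX lungs against 22968 to 31107 CPM in saline lungs. The 8 B and plasma cell genes were all higher in value but varied widely, at 880 to 4674 CPM in RTX lungs against 879 to 1757 CPM in saline lungs. The 6 alveolar macrophage genes, again mostly Chil3, summed to 4401 to 5344 CPM in RTX lungs against 3451 to 4078 CPM in saline lungs, with 3 of 6 higher. The 8 T cell genes summed to 137 to 162 CPM in RTX lungs against 107 to 151 CPM in saline lungs. The 5 lung endothelial genes summed to 1393 to 1595 CPM in RTX lungs against 1644 to 1718 CPM in saline lungs, apart, with 4 of 5 lower in value and 2 at an unadjusted p under 0.05. The 8 heart muscle genes were all lower in value (median −0.88) but overlapped in sum, at 138 to 173 CPM in RTX lungs against 116 to 417 CPM in saline lungs. The 8 heat shock genes summed to 2364 to 2822 CPM in RTX lungs against 1839 to 2295 CPM in saline lungs, apart, with 7 of 8 higher in value and 3 at an unadjusted p under 0.05. The 3 neutrophil precursor genes of 7 that were tested were all higher in value (median 0.71, 1 at an unadjusted p under 0.05), and the 7 summed to 41.97 to 139.9 CPM in RTX lungs against 46.7 to 68.3 CPM in saline lungs, mostly Ltf, with Elane at most 0.0464 CPM. The 5 germinal centre B cell genes, again mostly S1pr2, summed to 73.8 to 80.1 CPM in RTX lungs against 72.9 to 80.1 CPM in saline lungs. The part of these lists in the result was not tested.

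The intrathecal experiment addressed the loss of the spinal visceral afferents alone. Most members lay close to their controls: 41 of 50 had a positive log2 fold change, against 51.5% of 17360 genes, but the median was 0.07 (1.05-fold) and the range −0.20 to 0.31. edgeR called 0 members, at a threshold that 0.311% of all genes passed, and DESeq2 and limma voom also called 0. At an unadjusted p under 0.05, 3 members were higher (Mcm5, Aurka and Plk1) and 0 lower, against 5.85% of all genes higher and 5.63% lower, so the share of members was near the background. The groups did not overlap in 6 members that were higher and 1 that was lower, against 13.5% and 16.8% of all genes.

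Mcm5 was at 66.4, 60.3 and 62.8 CPM in RTX lungs and 54.2 and 55.6 CPM in saline lungs, with all RTX libraries above the saline ones (0.22 ± 0.08, SE, n = 3 and 2, edgeR adjusted p = 0.322). Aurka, the spindle pole kinase Aurora A, was at 19.3, 19.1 and 23.9 CPM in RTX lungs and 16.6 and 17.3 CPM in saline lungs and had the highest log2 fold change (0.31 ± 0.13, 0.404). Plk1 was at 28.2, 22.7 and 28.8 CPM in RTX lungs and 20.7 and 23.4 CPM in saline lungs, and RTX library 2 lay between the saline libraries (0.29 ± 0.13, edgeR adjusted p = 0.432). Mcm2, at 67.5, 60.2 and 63.01 CPM in RTX lungs and 56.2 and 57.8 CPM in saline lungs, was apart by a smaller distance (0.18 ± 0.08, edgeR adjusted p = 0.442). All 7 licensing and replication genes were positive (median 0.16), and 4 of them were apart. Ccne2 was the lowest, at 11.03, 8.59 and 11.6 CPM in RTX lungs and 12.4 and 11.9 CPM in saline lungs (−0.20 ± 0.16, edgeR adjusted p = 0.685).

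Mki67 was at 153, 105 and 129 CPM in RTX lungs and 119 and 139 CPM in saline lungs, and Top2a at 135, 105 and 132 CPM in RTX lungs and 123 and 125 CPM in saline lungs. The saline values lay inside the range of the RTX values in both. Cdk1 was at 25.8, 21.8 and 25.99 CPM in RTX lungs and 26.1 and 21.7 CPM in saline lungs, Ccnb1 at 30.7, 24.6 and 34.1 CPM in RTX lungs and 27.9 and 30.8 CPM in saline lungs, and Ccna2 at 42.2, 35.8 and 50.5 CPM in RTX lungs and 39.1 and 40.6 CPM in saline lungs. Rrm2 was at 43.3, 33.3 and 43.99 CPM in RTX lungs and 32.6 and 40.01 CPM in saline lungs. In all 4 genes the groups overlapped. Pcna was at 164, 157 and 162 CPM in RTX lungs and 157 and 154 CPM in saline lungs, E2f1 at 21.7, 19.2 and 20.5 CPM in RTX lungs and 19.8 and 19.6 CPM in saline lungs, and Ccne1 at 6.86, 7.55 and 8.36 CPM in RTX lungs and 6.73 and 7.29 CPM in saline lungs, with overlap in all 3.

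RTX library 2 stood apart from its group: it was the lowest of the 5 libraries in 33 members, below RTX library 1 in 47 and below RTX library 3 in 49. Without it 12 members had an unadjusted p under 0.05, against 3 with it, and the median was 0.16. The shares of all genes in either direction were 10.99% without it and 11.5% with it. Without RTX library 1 the count was 2 (13.3% of all genes, median 0.04). Without RTX library 3 the count was 1 (9.67% of all genes, median 0.01). In both, the members' share was below that of all genes. Without saline library 1 the median was 0.04 and without saline library 2 it was 0.13, each with 1 saline library left. Both saline libraries belonged to state A and the 3 RTX libraries to state B, and within this experiment the state and the treatment cannot be told apart. With state as a term over all 14 libraries the median was −0.24. That term was estimated from the other experiments alone, so this value is not an RTX effect freed of state.

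Of 50 other replication genes 39 were positive (median 0.12) and of 60 other mitotic genes 41 (median 0.08), with 0 called and 3 higher in each at an unadjusted p under 0.05. Pold1 (0.29 ± 0.08, edgeR adjusted p = 0.234) and Gins4, a subunit of the replicative helicase (0.27 ± 0.09, 0.312), led the replication genes, and Lmnb1, a nuclear lamin (0.29 ± 0.10, edgeR adjusted p = 0.296), and Nek2, a centrosome kinase (0.25 ± 0.11, 0.417), the mitotic ones. In the G1 list 2 of 20 genes passed the threshold. Cdk4 fell to 108, 123 and 119.8 CPM in RTX lungs, against 184 and 166 CPM in saline lungs (−0.56 ± 0.09, edgeR adjusted p = 0.0382). Cdkn2a, which encodes the inhibitor p16 and the protein ARF, fell to 1.09, 2.27 and 1.64 CPM in RTX lungs, against 6.82 and 5.57 CPM in saline lungs (−1.88 ± 0.29, 0.0382). Both genes followed library state across all 3 experiments: Cdk4 was at 156 to 208 CPM in the 5 libraries of state A and at 97.2 to 123 CPM in the other 9, and Cdkn2a at 5.05 to 8.07 CPM and at 1.04 to 2.27 CPM in the same libraries. Cdkn1a was at 155, 149.6 and 173 CPM in RTX lungs and 167 and 169.6 CPM in saline lungs, with overlap, and Ccnd1 was higher in value and apart, at 334, 268 and 359 CPM in RTX lungs and 259.8 and 259 CPM in saline lungs (0.32 ± 0.12, edgeR adjusted p = 0.356). The 8 B and plasma cell genes summed to 251 to 994 CPM in RTX lungs against 245 to 468 CPM in saline lungs and the 8 T cell genes to 90.2 to 152 CPM in RTX lungs against 90.4 to 99.8 CPM in saline lungs. The 6 alveolar macrophage genes were all higher in value (3 at an unadjusted p under 0.05, 0 called). Their sums overlapped, at 2520 to 3874 CPM in RTX lungs against 2566 to 2686 CPM in saline lungs. Of the 8 heat shock genes 2 were called higher and 2 lower, and they summed to 2760.0 to 3319.9 CPM in RTX lungs against 2481 to 2862 CPM in saline lungs. The part of these lists in the result was not tested.

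**Figure D3:**
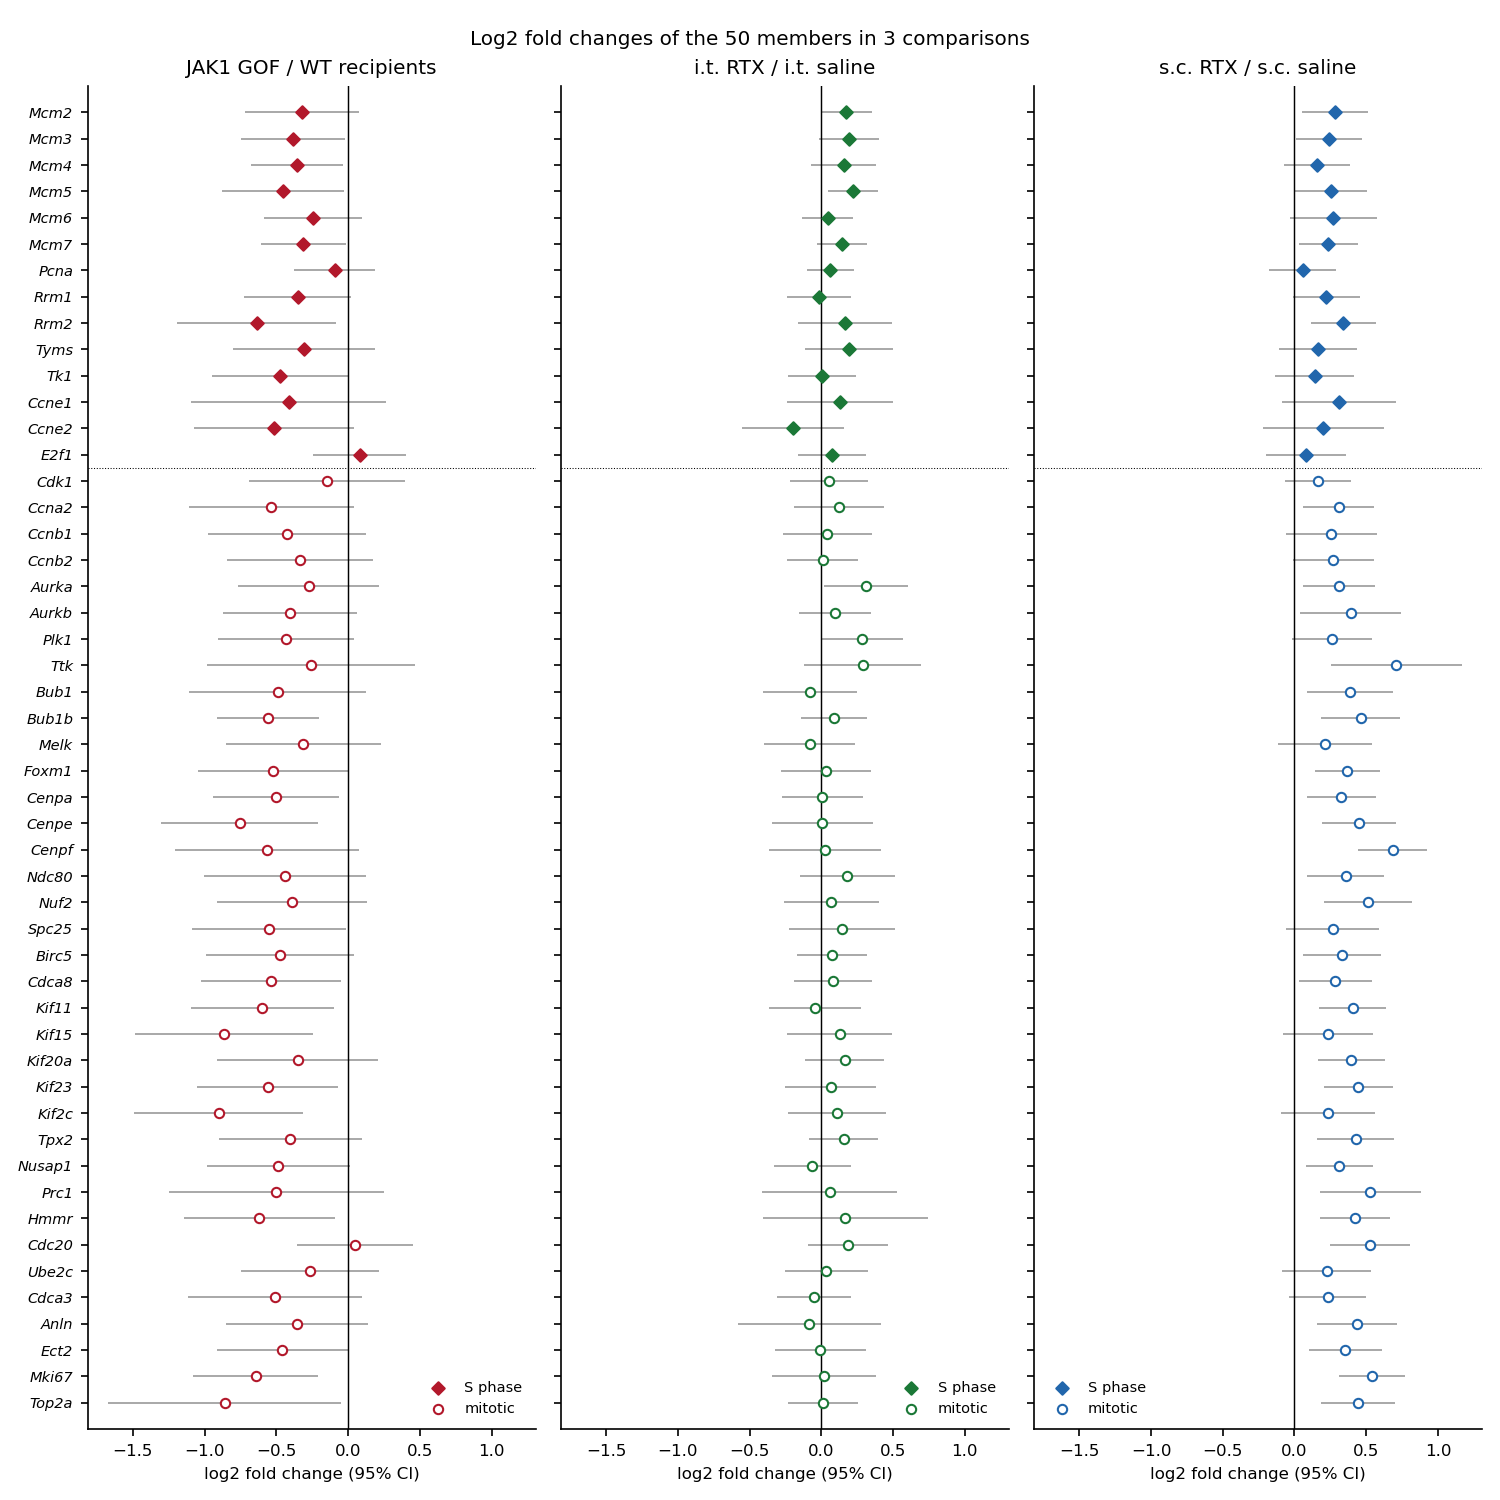
Log2 fold changes of the 50 members (points, x axis) with 95% intervals (lines) in JAK1 GOF against WT recipients, intrathecal RTX against saline and subcutaneous RTX against saline, S-phase members as diamonds above the dotted line and mitotic members as circles below it. All 50 points lie above 0 for subcutaneous RTX, 48 below 0 for GOF recipients, and the intrathecal values lie between −0.20 and 0.31.

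The difference between the subcutaneous and the intrathecal RTX effect was tested directly in a fit of these 10 libraries. It was positive for 48 of 50 members, with a median of 0.25 on the log2 scale against −0.01 over 17972 genes, of which 49.3% were positive. edgeR called 0 members, at a threshold that 0.0556% of all genes passed, and DESeq2 and limma voom also called 0. At an unadjusted p under 0.05, 7 members were higher, all mitotic, and 0 lower, against 7.53% of all genes higher and 7.68% lower. These were Cenpf (difference 0.67 ± 0.22, SE, edgeR adjusted p = 0.221), Top2a (0.44 ± 0.17, 0.275), Mki67 (0.53 ± 0.21, 0.279), Bub1 (0.48), Kif11 (0.46), Nusap1 (0.38) and Bub1b. The mitotic members had a median difference of 0.30 and the S-phase members 0.11. Without subcutaneous saline library 1 the median was 0.12 and without subcutaneous saline library 2 it was 0.38. Without intrathecal saline library 1 it was 0.29 and without intrathecal saline library 2 it was 0.23. Each of these fits left 1 saline library in a group. The count at an unadjusted p under 0.05 was 1 without subcutaneous RTX library 1, against 14.4% of all genes in either direction. It was 5 without subcutaneous RTX library 2 (12.7%) and 5 without subcutaneous RTX library 3 (13.6%). It was 10 without intrathecal RTX library 1 (17.6%), 4 without intrathecal RTX library 2 (12%) and 12 without intrathecal RTX library 3 (13.8%). The members' share was above that of all genes only without intrathecal RTX library 1 or 3. With library state as a term over all 14 libraries the median difference was 0.77 and all 50 members were positive. For the intrathecal effect that term was estimated from the other experiments. Route, dose and experiment cannot be told apart in this difference, and library state was not balanced over the groups.

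**Figure D4:**
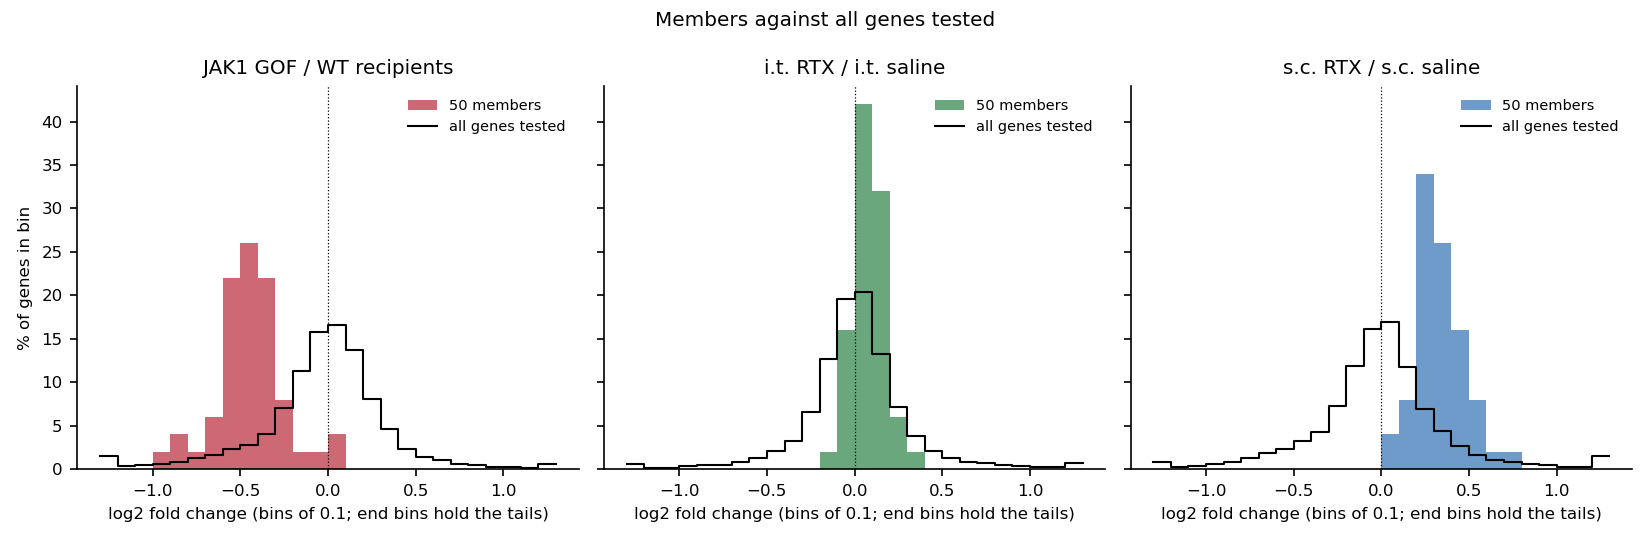
Share of genes (y axis, %) by log2 fold change in bins of 0.1 (x axis, the end bins hold the tails), filled bars for the 50 members and lines for all genes tested in each comparison. The members lie left of all genes for GOF recipients (median −0.45), near them for intrathecal RTX (0.07) and right of them for subcutaneous RTX (0.31).

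To set S phase against mitosis within each library, an S-phase index (mean log2(CPM + 1) of the 14 members) and a mitotic index (the same over the 36) were formed. These summarise the same members and were not tested. The S-phase minus mitotic index was 1.14 and 1.21 in GOF recipients and 1.13 and 1.02 in WT recipients, apart by a small distance. It was 0.65, 0.80 and 0.63 in intrathecal RTX lungs and 0.66 and 0.66 in intrathecal saline lungs. In subcutaneous RTX lungs it was 0.68, 0.61 and 0.51, below both saline lungs at 0.79 and 0.73. The mitotic members summed to 1411 to 1516 CPM in subcutaneous RTX lungs against 973 to 1197 CPM in saline lungs, and the S-phase members to 838 to 1014 CPM in RTX lungs against 739 to 845 CPM in saline lungs, where the lowest RTX library was below the highest saline library.

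**Figure D5:**
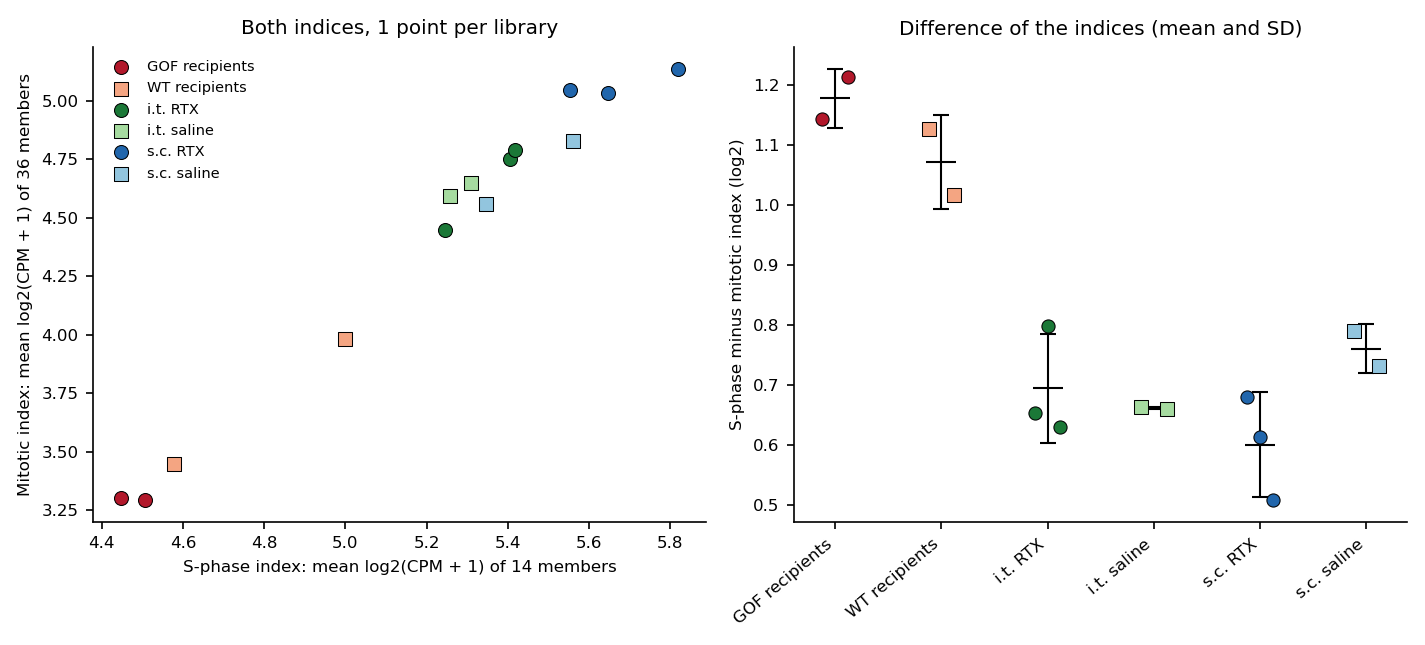
Left, mitotic index against S-phase index (mean log2(CPM + 1) of 36 and of 14 members), 1 point per library. Right, the difference of the indices with the mean and SD of each group, where the axis does not start at 0. The difference is 0.51 to 0.68 in subcutaneous RTX lungs, below both saline lungs, and 1.02 to 1.21 in the 4 chimera libraries.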

How the data were processed

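Per the labels, lung RNA was purified with RNeasy, selected with oligo-dT and made into NEBNext Ultra II libraries. Per the submitters' processing notes, the tools included FastQC 0.11.8, Trim Galore 0.6.6, STAR 2.7.5b and Salmon 1.2.1, with build GRCm38; of the annotation release and strand setting nothing is said in the sources used here. Deposited by the authors were estimated counts per gene, 1 table per experiment, of which 24.2% were not whole. They were rounded here, and CPM divides them by the total of the library. Libraries of 1 experiment at a time entered edgeR 4.0.16 (R 4.3.3), with TMM factors, genes kept by filterByExpr (min.count 10, min.total.count 15), a robust quasi-likelihood F test, Benjamini-Hochberg adjustment over all genes and a threshold of 0.05, and the difference between the RTX effects in 1 fit of 10 libraries. Fold changes are TMM-scaled. DESeq2 1.42.0, limma 3.58.1 voom, other scalings and filters, library state, the replicate number as a block and leaving out each library were the alternatives.

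Replicates differed beyond counting noise (chi-square per degree of freedom 8.91 to 21.3). Gene positions and exon lengths came from GENCODE M21 by identifier, which matched 53307 of 54347 genes in the same version and 54094 in any. Counting could split reads between overlapping or antisense genes. Figures were drawn with matplotlib 3.10.9. The members, lists and tests were chosen with earlier results of these data known. The rule for naming gave values in every library for 13 fixed members (Mki67, Top2a, Cdk1, Ccnb1, Ccna2, Plk1, Rrm2, Mcm2, Mcm5, Pcna, Ccne1, Ccne2 and E2f1) and, per comparison, for the 6 members with the smallest p and those with the highest and lowest fold change. Of each other list it named up to 4 genes past the threshold, otherwise the 2 with the smallest p, and always Cdkn1a and Ccnd1.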

Additional observations from a re-analysis of the deposited data

How the results depend on the processing

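With 2 or 3 libraries a group, differences of the size seen here rest on few samples, and single libraries moved them. The members' median log2 fold change ranged from −0.72 to −0.13 for GOF recipients, from 0.01 to 0.16 for intrathecal RTX, from 0.19 to 0.45 for subcutaneous RTX and from 0.12 to 0.38 for the difference of the RTX effects when each library was left out in turn. Over the same fits the number of members called ranged from 0 to 27, 0 to 0, 0 to 16 and 0 to 0 in that order, and the number at an unadjusted p under 0.05 from 1 to 45, 0 to 12, 17 to 40 and 0 to 23. The highest counts for GOF recipients and subcutaneous RTX came from fits that left 1 control library, where calls over all genes rose as well. Counts at an unadjusted p were added after the data were seen. Without the low-count filter 10 members were called lower in GOF recipients (34 at an unadjusted p under 0.05, against 9.55% of all genes) and 15 higher with subcutaneous RTX. Calls over all genes rose too, from 124 to 807 in GOF recipients (622 lower). With subcutaneous RTX they rose from 0 to 807 (364 higher). DESeq2 called 1 member in GOF recipients (among 305 genes) and 15 with subcutaneous RTX (among 761 genes), and put 1 at an unadjusted p under 0.05 with intrathecal RTX. At an adjusted p of 0.1 edgeR called 1 with subcutaneous RTX. All 14 libraries in 1 fit gave 0 at an unadjusted p under 0.05 with intrathecal RTX, 18 with subcutaneous RTX and 1 for the difference. With library state as a term 1 member was called in GOF recipients (41 at an unadjusted p), the intrathecal median was −0.24 (1 at an unadjusted p), the subcutaneous median 0.53, and 20 members had an unadjusted p under 0.05 for the difference. The replicate number as a block gave 0 at an unadjusted p under 0.05 with intrathecal RTX, 24 with subcutaneous RTX and 2 for the difference. The shares of all genes were 6.53%, 11.1% and 12.5%, and 0 members were called in each comparison. Libraries with the same number did not deviate together (correlations −0.23 to 0.02 across genes), and the labels do not pair them. Direction was followed only for the members that the naming rule covers. For intrathecal RTX these were those with the smallest p and the highest and lowest fold change. Over all 50 members, positive values in GOF recipients went from 2 in the main fit to 11 without WT recipient 2. With intrathecal RTX they went from 41 to 26 without RTX library 3 and to 24 with the replicate block. Among the members followed, direction reversed as follows, each with its range over the fits that left out 1 library. In GOF recipients Cdk1 was 0.25 without WT recipient 2 and 0.025 without GOF recipient 2 (range −0.45 to 0.25), Ccnb1 0.031 without WT recipient 2 (−0.77 to 0.031), Pcna 0.0047 without WT recipient 2 (−0.19 to 0.0047) and E2f1 −0.0026 without WT recipient 1 (−0.0026 to 0.17). With subcutaneous RTX, Pcna was −0.012 without saline library 1 and −0.034 without RTX library 1 (−0.034 to 0.13), Ccne2 −0.044 without saline library 1 (−0.044 to 0.49) and E2f1 −0.010 without RTX library 1 (−0.010 to 0.16). With library state as a term, estimated from the other experiments, 4 of 50 members were positive with intrathecal RTX, against 41 in the main fit. Of the members followed, those that reversed there were at −0.18 for Mcm5, −0.052 for Aurka, −0.16 for Mcm2, −0.11 for Mcm3 and −0.029 for Mcm7. Apart from the construction of each setting (fewer libraries or more genes), the cause was not tested. With each library left out, the difference in S-phase minus mitotic index ranged from 0.050 to 0.16 for GOF recipients, −0.020 to 0.065 for intrathecal RTX (negative without RTX library 2) and −0.20 to −0.11 for subcutaneous RTX.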
